A study of Mus musculus with 40 samples.

Results

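Male fetal livers from dams fed a western diet were compared with male fetal livers from dams fed a control diet, both diets holding the ordinary dose of folic acid. The 5 WD_M libraries came from fetuses of dams on a diet with 45% of its calories from fat and 2 mg/kg folic acid. The 5 CD_M libraries came from fetuses of dams on a diet with 10% of its calories from fat and 2 mg/kg folic acid. These 10 libraries, taken by the diet and sex given in their labels, are 10 of the 40 in the series, in which WDF and CDF mark the same fat contents with 10 mg/kg folic acid and F in place of M marks females, 5 libraries a group. All fetuses were C57BL/6 and were taken on gestational day 18.5, and the dams had eaten their diet for 13 weeks before mating and then through pregnancy. The submitters use the western diet as a model of gestational diabetes, so the fetus met the diet only through its mother. One microgram of RNA of each fetus was made into a directional, polyadenylated RNA library. The question is how a fat-rich maternal diet alters the fetal liver transcriptome when folic acid is not raised. Since the labels do not tell which dam or litter a fetus came from, littermates may be among them, and p-values reflect only how these fetuses vary.

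The fetal liver just before birth is at once a metabolic organ of maturing hepatocytes and a site of blood formation. Hepatocytes build fatty acids from acetyl-CoA through Acly, Acaca, Fasn and the desaturase Scd1, driven by the transcription factors of Srebf1 and Mlxipl, and build cholesterol through a pathway driven by Srebf2. In adult liver these pathways respond to insulin, carbohydrate and dietary fat. Red cell precursors are the main dividing population of the organ at this age, so bulk RNA mixes both, and a lower share of a cell type cannot be told apart from less RNA of its genes per cell.

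Promoters of these pathways are shown first, as the sequence context of the genes whose values follow. RefSeq promoter windows (GRCm38.p6) of 250 bases before the start were at hand for 21 of 24 genes in the list of fatty acid synthesis, 18 of 26 of cholesterol synthesis, 23 of 29 of DNA replication and 22 of 28 of mitosis. The pentamer CCAAT, the core of the box bound by NF-Y, occurred on either strand in 15 fatty acid genes (71.4%), 16 cholesterol genes (88.9%), 16 replication genes (69.6%) and 17 mitosis genes (77.3%), against 37.5% of all 27025 genes with a window. The hexamer TTTGAA, the letters of the cell cycle homology region found in many mitotic promoters, occurred on either strand in 4 fatty acid genes (19%), 1 cholesterol gene (5.56%), 4 replication genes (17.4%) and 8 mitosis genes (36.4%), against 18.3% of all. One strict form of the sterol regulatory element, TCACNCCAC, occurred in 1 fatty acid gene (4.76%) and 1 cholesterol gene (5.56%), against 1.22% of all. A match is a description of letters and not a binding site. The windows below run 5′ to 3′ toward the start, end where the first annotated transcript begins, and carry CCAAT or TTTGAA of either strand in capitals. Fasn (chr11:120824548-120824797, minus strand) holds 3 CCAAT matches, a pair of which overlap on opposite strands. Elovl6 (chr3:129532136-129532354, plus strand) holds 1 TTTGAA match and lies inside the antisense gene Gm35986 described below. Cdk1 (chr10:69352939-69353162, minus strand) holds 3 CCAAT matches and 1 TTTGAA match, and Ccnb1 (chr13:100786571-100786736, minus strand) holds 1 CCAAT match. The shares above used all 250 bases, whereas the printed windows of Elovl6, Cdk1 and Ccnb1 hold 219, 224 and 166. The full Cdk1 window also has a TTTGAA match 15 bases before the RefSeq start.
Fasn: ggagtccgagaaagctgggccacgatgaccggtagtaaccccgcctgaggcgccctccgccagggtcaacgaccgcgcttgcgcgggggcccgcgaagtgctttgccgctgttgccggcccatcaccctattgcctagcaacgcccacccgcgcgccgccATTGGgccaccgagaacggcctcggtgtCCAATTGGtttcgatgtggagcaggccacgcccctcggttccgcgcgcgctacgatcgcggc
Elovl6: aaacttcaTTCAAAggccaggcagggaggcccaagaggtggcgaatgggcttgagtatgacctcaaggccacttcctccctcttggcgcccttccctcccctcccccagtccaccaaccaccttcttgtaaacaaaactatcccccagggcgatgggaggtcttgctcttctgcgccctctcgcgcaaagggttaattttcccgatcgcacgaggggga
Cdk1: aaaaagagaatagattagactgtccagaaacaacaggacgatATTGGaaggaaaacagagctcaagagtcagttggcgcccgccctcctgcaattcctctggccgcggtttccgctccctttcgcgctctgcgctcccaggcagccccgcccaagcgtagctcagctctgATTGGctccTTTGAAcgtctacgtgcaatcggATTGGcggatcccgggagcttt
Ccnb1: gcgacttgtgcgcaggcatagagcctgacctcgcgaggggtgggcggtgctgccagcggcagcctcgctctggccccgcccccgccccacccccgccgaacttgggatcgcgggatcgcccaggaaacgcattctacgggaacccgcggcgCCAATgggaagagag

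Values are the authors' read counts divided by size factors, called normalized values here. A library's values summed to between 15060000 and 18510000 in WD_M and between 16290000 and 20810000 in CD_M. Albumin message (Alb) ranged over 910400 to 1289000 in WD_M livers and 641900 to 1456000 in CD_M livers, so hepatocyte message was abundant in every library. The X inactivation transcript Xist was at most 1.11 in WD_M and 1.33 in CD_M, and the Y-linked Ddx3y at least 1155 in WD_M and 1233 in CD_M, which fits the male label. Library CD_M 4 stood apart: its correlation with the mean of its own group was 0.927, against 0.962 to 0.984 in the WD_M libraries and at least 0.971 in the other CD_M libraries, and the nuclear transcript Malat1 was 29460 in it, against 3116 to 7400 in WD_M and 2350 to 7629 in the other CD_M libraries. Library CD_M 5 held 4012 for Sftpc, a lung surfactant gene, which was at most 14.7 in WD_M and 133 in the other CD_M libraries. Gene differences and list medians that turned or moved by over 1.5 times without CD_M 4 or without CD_M 5 are given with and without that library. Where other single libraries moved a list median as far, those values or its range over all 10 single left-out libraries are given.

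No gene passed the test across all genes. Of 14783 genes tested with limma on log2(value + 1) over the 20 male libraries, 0 passed a Benjamini-Hochberg adjusted p of 0.05 between WD_M and CD_M, and the smallest adjusted p was 0.197. At an unadjusted p under 0.05 there were 1100 genes, 7.44% of those tested, with 560 higher (3.79%) and 540 lower (3.65%) in WD_M. With limma library weights, 125 genes (0.846%) passed the adjusted threshold, whereas without CD_M 4 the count was 0. The weight was 0.16 for CD_M 4 and 3.083 for CD_M 2. It was 3.585 for WD_M 3, against 0.42 to 0.67 for the other WD_M libraries, so the weighted contrast leaned on few libraries. The 5 WD_M values lay above all 5 CD_M values for 126 genes (0.852%) and below all of them for 98 genes (0.663%). The log2 difference was above 0 for 48.3% of all genes and below 0 for 51.7%, with a median of -0.01. Every difference below is therefore given as a value that did not pass the adjusted threshold, and each count of list members is read against these shares. A log2 difference is given ± its standard error from limma where one is printed.

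**Figure D1:**
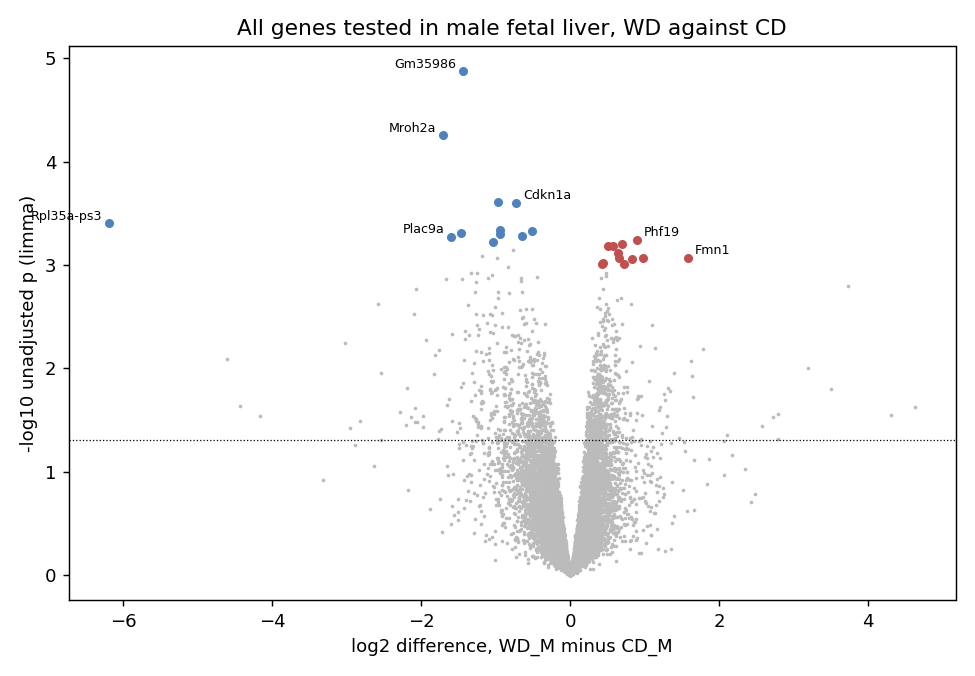
Each point is 1 of 14783 genes, with its log2 difference (WD_M minus CD_M) on the x axis and the -log10 of its unadjusted p from limma on the y axis, and the dotted line marks the 0.05 threshold. The 12 genes with the smallest p in each direction are coloured (red higher, blue lower in WD_M), and Gm35986 and Mroh2a lie highest, on the lower side.

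The smallest p-values belonged to genes that were lower in WD_M. Gm35986, an antisense RNA gene (chr3:129527467-129532388, minus strand, GENCODE M21), had 22.6, 34.5, 14.7, 19.3 and 11.9 in WD_M livers, against 44.03, 61.6, 43.8, 70.9 and 53.9 in CD_M livers. All 5 WD_M values lay below all 5 CD_M values. The log2 difference was -1.43 ± 0.25 (limma, adjusted p = 0.197). The gene runs away from the start of Elovl6, the fatty acid elongase described below (chr3:129532355-129638495, plus strand), and the annotated ends overlap by 34 bases. The library kit keeps strand, but whether the authors' counting used it is not given in the sources used here, so reads from the shared bases cannot be assigned. Mroh2a, which encodes a HEAT-repeat protein (chr1:88226986-88262289, plus strand), had 66.8, 32.9, 26.3, 47.8 and 32.8 in WD_M livers, against 148, 152, 75.6, 197 and 111 in CD_M livers, again without overlap, and differed by -1.71 ± 0.34 (limma, adjusted p = 0.412). Cdkn1a, the gene of the cell cycle inhibitor p21 (chr17:29090976-29100727, plus strand), had 585, 375, 423, 607 and 636 in WD_M livers, against 1006, 695, 675, 989 and 986 in CD_M livers. The highest WD_M value was below the lowest CD_M value, and the difference was -0.74 ± 0.17 (limma, adjusted p = 0.516). Lysmd2 differed by -0.96 ± 0.22, Hook2, a microtubule linker, by -0.51 ± 0.12 and Pygo1, a Wnt pathway coactivator, by -0.94 ± 0.23, each with no overlap between groups. Entpd2, an ectonucleotidase, had 156, 112, 114, 179.8 and 129 in WD_M livers, against 304, 309.8, 188, 353 and 277 in CD_M livers, without overlap. Csad, an enzyme of taurine synthesis, had 2581, 1893, 2156, 2687 and 2713 in WD_M livers, against 3601, 3635, 2593, 4705 and 4455 in CD_M livers. Only CD_M 3 fell within the WD_M range of Csad, and the difference was -0.64 ± 0.16. The remaining genes among the 12 were Slc17a8, a glutamate transporter (-1.46 ± 0.35), Plac9a (-1.59 ± 0.39), the lipid enzyme Lpin1, described below, and Rpl35a-ps3. The last is a ribosomal protein pseudogene at 0 in all 5 WD_M libraries and in CD_M 5 but at 131 to 462 in the other CD_M libraries; its reads may belong to its parent gene, so its value is uncertain.

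The 12 genes with the smallest p on the higher side have varied roles. Kntc1, a kinetochore checkpoint protein, had 393, 596, 459, 424 and 392 in WD_M livers, against 269, 355, 294, 257 and 335 in CD_M livers, with no overlap. Kif14, a kinesin of cytokinesis, had 365, 425, 465, 509.6 and 509 in WD_M livers, against 292, 319, 362, 260.2 and 234 in CD_M livers, and Hmmr, a spindle protein, had 1011, 1133, 1072, 1091 and 1144 in WD_M livers, against 843, 792, 847, 861 and 699 in CD_M livers. In both, all WD_M values exceeded all CD_M values, with log2 differences of 0.64 ± 0.16 and 0.43 ± 0.11 (limma, adjusted p = 0.516 for each). Donson, a replication fork protein, differed by 0.69 ± 0.17 and Ninl, a centrosomal protein, by 0.83 ± 0.21. Phf19, a subunit that brings Polycomb repressive complex 2 to chromatin (chr2:34893757-34914026, minus strand), had 163, 69.9, 109, 108 and 70.5 in WD_M livers, against 40.7, 57.97, 60, 49.4 and 58.5 in CD_M livers. The groups did not overlap, although WD_M 2 and 5 lay close to the CD_M range, and the difference was 0.89 ± 0.22 (limma, adjusted p = 0.516). Pms2, a mismatch repair endonuclease subunit, had 282, 192, 194, 351 and 199 in WD_M livers, against 176, 167, 131, 117 and 131 in CD_M livers, also without overlap. Dusp9, a MAP kinase phosphatase, differed by 0.97 ± 0.25, Fmn1, an actin nucleator, by 1.58 ± 0.40, Senp1, a SUMO protease, by 0.42 ± 0.11, Zfp932, a zinc finger protein, by 0.66 ± 0.17 and Mns1, a ciliary protein, by 0.50 ± 0.13.

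Genes of fatty acid synthesis were lower in WD_M livers almost throughout. Of the 24 members, 22 were lower and 2 higher, 9 were lower at an unadjusted p under 0.05 (3.65% of all genes) and 0 higher, and the median log2 difference was -0.48 (-0.01 over all genes). Without CD_M 4 the median was -0.51 and 14 members were lower at an unadjusted p under 0.05 (3.01% of all genes in that fit), and without WD_M 5, the lowest library, the median was -0.37 with 5 such members. Thrsp, which encodes the Spot 14 activator of lipogenesis (chr7:97412938-97417730, minus strand), had 15.3, 32.8, 19.5, 125 and 2.74 in WD_M livers, against 282, 245, 87.4, 131 and 234 in CD_M livers. WD_M 1, 2, 3 and 5 lay below every CD_M liver, and WD_M 4 lay within the CD_M range. The means were 39.04 ± 49.2 in WD_M and 196 ± 82.4 in CD_M (SD, n = 5 each), with a log2 difference of -3.03 ± 0.98 (limma, adjusted p = 0.617). Acss2, which makes acetyl-CoA from acetate, had 1325, 1790, 1769, 2658 and 611 in WD_M livers, against 4977, 4007, 3390, 2135 and 3786 in CD_M livers. WD_M 4 alone exceeded the lowest CD_M liver, CD_M 4, and the difference was -1.26 ± 0.42 (limma, adjusted p = 0.620). Me1, the malic enzyme that supplies NADPH, had 312, 319, 269.5, 672 and 169.6 in WD_M livers, against 886, 879, 601, 474 and 718 in CD_M livers, with only WD_M 4 above CD_M 3 and CD_M 4. It differed by -1.14 ± 0.38 (limma, adjusted p = 0.620). Elovl6, the elongase of long-chain fatty acids, had 2118, 1888, 2493, 3407 and 2083 in WD_M livers, against 3973, 3392, 3022, 2644 and 3257 in CD_M livers. WD_M 4 lay within the CD_M range and the other WD_M livers below it, and the difference was -0.46 ± 0.14 (limma, adjusted p = 0.600).

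For several core enzymes CD_M 4 was the lowest CD_M library. Fasn, fatty acid synthase, had 2604, 3783, 3882, 4238 and 2129 in WD_M livers, against 6500, 4926, 4388, 2416 and 8358 in CD_M livers. CD_M 4 lay inside the WD_M range and the other 4 CD_M livers above it, and the difference was -0.61 ± 0.32, or -0.86 without CD_M 4 (unadjusted p = 0.0733 with it and 0.00925 without it). Acly, ATP citrate lyase, had 4362, 4819, 5701, 6799 and 3302 in WD_M livers, against 9062, 7191, 6938, 4900 and 7297 in CD_M livers, a difference of -0.52 ± 0.26, or -0.64 without CD_M 4. Scd1, stearoyl-CoA desaturase, had 4102, 4930, 5075, 9078 and 2415 in WD_M livers, against 11540, 9574, 7622, 5883 and 8814 in CD_M livers, with -0.86 ± 0.42, or -0.99 without CD_M 4. Acaca, acetyl-CoA carboxylase, differed by -0.30 ± 0.21 and Pnpla3, a lipid droplet enzyme, by -0.80 ± 0.33. The regulators themselves differed by less than the spread between livers. Srebf1 averaged 2553 ± 453 in WD_M and 2554 ± 538 in CD_M (SD, n = 5 each) and differed by 0.01 ± 0.17, a value whose sign changed without CD_M 4 (-0.12, and 0.045 without CD_M 5), and Mlxipl, the gene of ChREBP, averaged 234 ± 47.1 in WD_M and 280.2 ± 74.8 in CD_M (SD, n = 5 each) and differed by -0.24 ± 0.18, or -0.16 without CD_M 4 and -0.13 without CD_M 5.

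**Figure D2:**
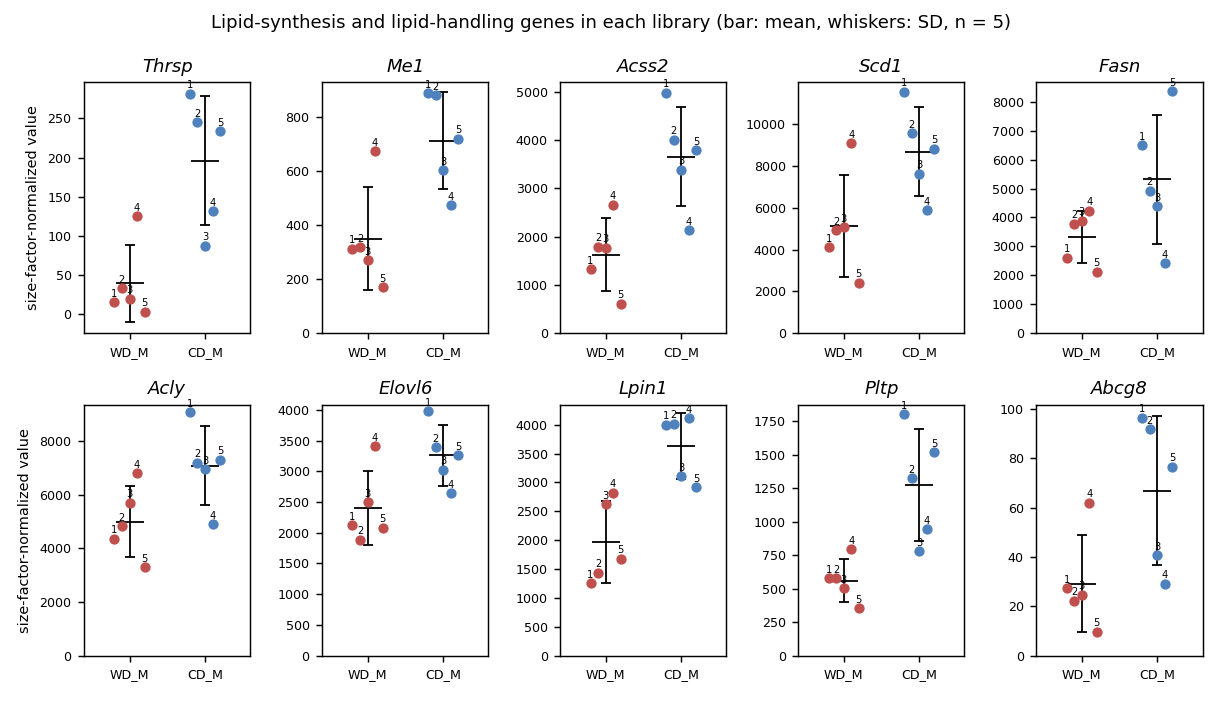
Normalized values of 10 genes of lipid synthesis and lipid handling in each WD_M (left, red) and CD_M (right, blue) library, numbered by replicate, with the mean as a bar and the SD as whiskers (n = 5 each). WD_M 4 is the highest WD_M library in every panel.

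Cholesterol synthesis and uptake leaned the same way. Of 26 genes, 24 were lower and 2 higher in WD_M, 8 lower and 0 higher at an unadjusted p under 0.05, with a median of -0.35. Without CD_M 4 the median was -0.38 and 13 genes were lower at that threshold, whereas 2 were without WD_M 5, 4 without CD_M 1 and 5 without CD_M 3. Cyp51, lanosterol demethylase, had 4708, 5420, 5541, 3875 and 2821 in WD_M livers, against 6832, 5435, 7132, 7479 and 5069 in CD_M livers. WD_M 2 and 3 lay within the CD_M range and the other WD_M livers below it. The difference was -0.54 ± 0.22, or -0.48 without CD_M 4. Fdft1, squalene synthase, differed by -0.44 ± 0.18. Srebf2, the regulator, differed by 0.01 ± 0.16, or -0.11 without CD_M 4 and 0.10 without CD_M 5, with means of 1544 ± 314 in WD_M and 1542 ± 349 in CD_M (SD, n = 5 each). Abcg8, a subunit of the sterol exporter of the canalicular membrane, had 27.5, 22.3, 24.7, 61.96 and 9.69 in WD_M livers, against 96.5, 91.6, 40.7, 29.2 and 76.6 in CD_M livers. It differed by -1.25 ± 0.38, or -1.51 without CD_M 4, with an adjusted p of 0.600 by limma.

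Genes that store, move and burn fat showed smaller list medians. In triglyceride synthesis and lipid droplets 16 of 19 genes were lower (median -0.18) and 2 were lower at an unadjusted p under 0.05. Lpin1, the phosphatidate phosphatase that also coactivates fatty acid oxidation (chr12:16535669-16610966, minus strand), had 1256, 1439, 2620, 2822 and 1678 in WD_M livers, against 3997, 4020, 3105, 4108 and 2921 in CD_M livers. No WD_M value reached the CD_M range, and the difference was -0.95 ± 0.23 (limma, adjusted p = 0.516). Gpam, which starts glycerolipid synthesis, had 3701, 2781, 3845, 6661 and 4170 in WD_M livers, against 7359, 6394, 6023, 4822 and 5739 in CD_M livers, with WD_M 4 inside the CD_M range, and differed by -0.57 ± 0.22. Among lipoproteins and lipid transfer, 15 of 23 genes were lower (median -0.16, or -0.09 without CD_M 4, 5 lower and 0 higher at an unadjusted p under 0.05). Pltp, the phospholipid transfer protein, had 576, 576, 503, 794 and 353 in WD_M livers, against 1800, 1324, 781, 943 and 1517 in CD_M livers. WD_M 4 exceeded only CD_M 3, and the difference was -1.17 ± 0.35 (limma, adjusted p = 0.600). Angptl8, an insulin-responsive inhibitor of lipoprotein lipase, differed by -0.87 ± 0.31, or -0.60 without CD_M 4, and Apoc3 by -1.07 ± 0.47, or -0.77. Fatty acid oxidation and ketogenesis had 24 of 32 genes lower, a median of -0.12 and 3 lower at an unadjusted p under 0.05. Fgf21, the fasting hormone and PPARα target, had 1.68, 1.78, 1.09, 21.7 and 17.8 in WD_M livers, against 6.56, 18.8, 28.96, 58.4 and 33.2 in CD_M livers. WD_M 1 to 3 lay below every CD_M liver and WD_M 4 and 5 among them, with a difference of -2.08 ± 0.91, or -1.77 without CD_M 4. Slc25a20, the mitochondrial carnitine carrier, differed by -0.24 ± 0.10, and Acot1, a cytosolic thioesterase, by -0.42 ± 0.18.

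Glucose genes were lower in 12 of 15 cases (median -0.23, or -0.16 without CD_M 4 and -0.14 without WD_M 2). Ppp1r3c, a glycogen-targeting phosphatase subunit, differed by -0.61 ± 0.25. Insulin and insulin-like growth factor genes had a median of 0.09, which lay between -0.01 and 0.19 with single libraries left out (0.01 without CD_M 4), with 0 of 19 at an unadjusted p under 0.05 in either direction. Igfbp1, a secreted IGF-binding protein that insulin represses in liver, had 5813, 5190, 12600, 23320 and 56850 in WD_M livers, against 20020, 31240, 28540, 21380 and 20020 in CD_M livers. The WD_M group spanned the whole CD_M range, with WD_M 1 to 3 below it and WD_M 5 above it, and the difference was -0.78 ± 0.44.

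A split within WD_M was also seen in other hepatocyte genes that are switched on around birth, named here after their values were seen. Tat, tyrosine aminotransferase, had 85.95, 49.7, 62.9, 1314 and 3349 in WD_M livers, against 362, 751, 1501, 554 and 591 in CD_M livers. Pck1, the gluconeogenic carboxykinase, had 20.2, 7.32, 38.01, 236 and 1083 in WD_M livers, against 19.6, 114, 75.02, 43.9 and 27.2 in CD_M livers. Cps1, the first enzyme of the urea cycle, had 7576, 5464, 9430, 19340 and 21890 in WD_M livers, against 17360, 16640, 10950, 7246 and 13130 in CD_M livers. In each, WD_M 4 and 5 were above WD_M 1 to 3, and the groups overlapped widely, with log2 differences of -1.35 ± 1.0021, 0.59 ± 0.91 and -0.17 ± 0.31 (the last -0.37 without CD_M 4). The summed red cell lineage values ran the other way, at 3622000, 4000000, 2770000, 2136000 and 1181000 in WD_M 1 to 5, against 1668000 to 4835000 in CD_M. With the mean level of the red cell list as a covariate, Pck1 differed by 1.77 and Cps1 by 0.29. The cause of the split was not tested.

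**Figure D3:**
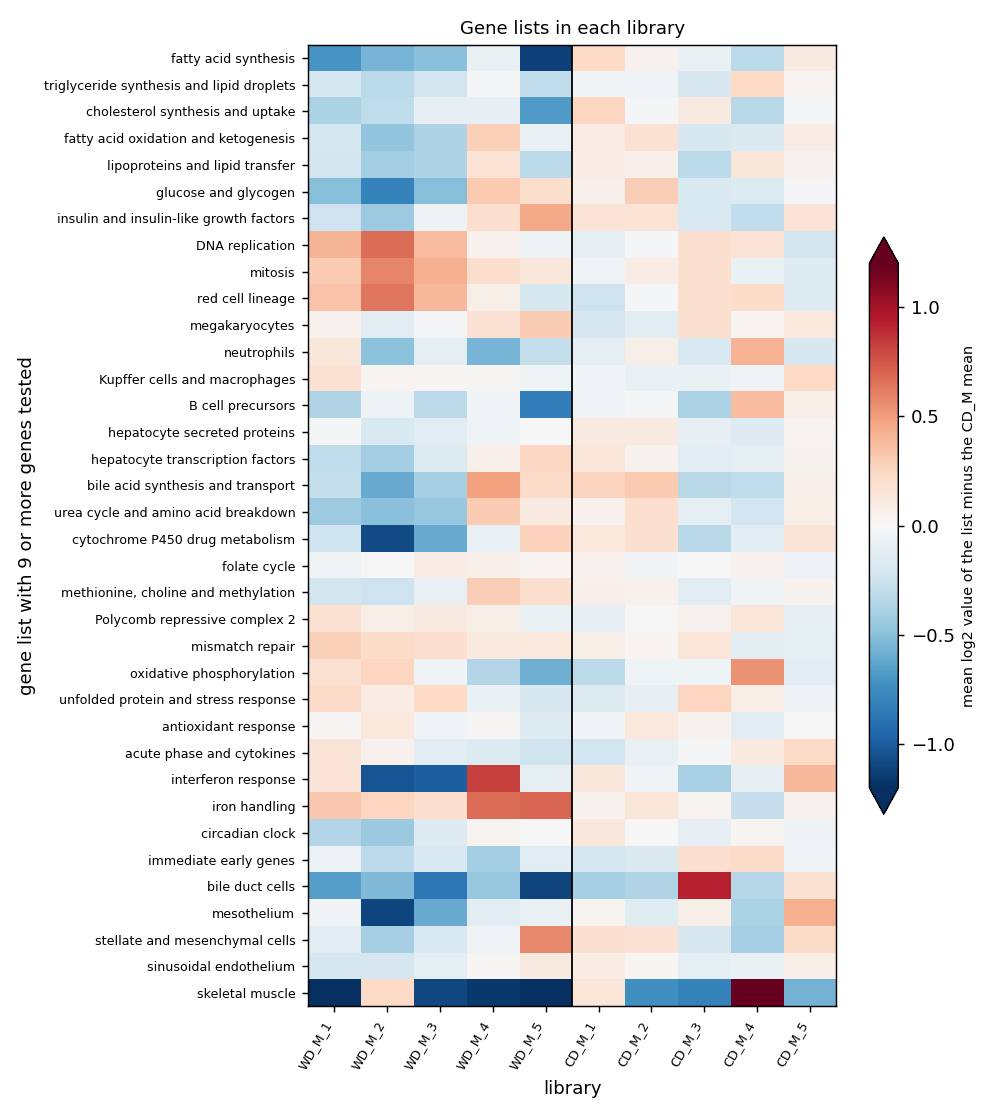
Mean log2 value of each gene list with 9 or more genes tested, minus the CD_M mean of that list, in the 5 WD_M libraries (left) and the 5 CD_M libraries (right); red is above and blue below the CD_M mean, and colours end at 1.2. Fatty acid synthesis runs from -1.12 to -0.09 in WD_M and from -0.32 to 0.24 in CD_M, and mitosis from 0.14 to 0.59 in WD_M and from -0.15 to 0.19 in CD_M.

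Genes of cell division were higher in WD_M livers. In the mitosis list 27 of 28 genes were higher, 17 at an unadjusted p under 0.05 (3.79% of all genes) and 9 with no overlap between groups (0.852% of all genes), with a median log2 difference of 0.33. Without CD_M 4 the median was 0.32 and 16 genes were higher at that threshold (2.35% of all genes in that fit), without WD_M 2 there were 11, and without both CD_M 4 and CD_M 5 the median was 0.27 with 5 (1.54% of all genes higher and 2.2% lower in that fit). In DNA replication 26 of 29 were higher, 8 at an unadjusted p under 0.05 and 3 with no overlap, with a median of 0.29, or 0.19 without WD_M 2. That count was 13 without WD_M 4 and 16 without WD_M 5. Relative to the CD_M mean, the mean log2 level of the replication list was 0.41, 0.67, 0.37, 0.05 and -0.065 in WD_M 1 to 5. It was -0.11, -0.02, 0.20, 0.16 and -0.22 in CD_M 1 to 5, so WD_M 4 and 5 lay within the CD_M range. Ccnb1, cyclin B1, had 1555, 1795, 1698, 1492 and 1560 in WD_M livers, against 1166, 1230, 1296, 515 and 1069 in CD_M livers. All WD_M livers exceeded all CD_M livers, CD_M 4 being far below the rest, and the difference was 0.69 ± 0.20, or 0.44 without CD_M 4 (limma, adjusted p = 0.600 with it). Aurkb, the kinase of the chromosomal passenger complex, had 627, 795, 753, 687 and 640.1 in WD_M livers, against 490, 533, 563, 281 and 525 in CD_M livers, and Mad2l1, a spindle checkpoint protein, had 908, 1051, 793, 729 and 679.9 in WD_M livers, against 645, 671, 650.4, 455 and 594 in CD_M livers. Neither overlapped, and the differences were 0.58 ± 0.18 and 0.46 ± 0.14. Bub1b, a checkpoint kinase, differed by 0.45 ± 0.14. Mcm6, a subunit of the replicative helicase, had 2891, 3015, 3287, 2945 and 2776 in WD_M livers, against 2418, 2608, 2545, 1851 and 2043 in CD_M livers. WD_M livers were all higher, with a narrow spread, and the difference was 0.39 ± 0.11 (limma, adjusted p = 0.600). Gins3, a helicase cofactor, differed by 0.44 ± 0.13 and Prim1, the primase subunit, by 0.63 ± 0.20, or 0.40 without CD_M 4, both with no overlap. Uhrf1, which recruits DNA methyltransferase to replicating DNA, had 1472, 1905, 1971, 1847 and 1619 in WD_M livers, against 1227, 1272, 1431, 1317 and 1356 in CD_M livers. All 5 WD_M values exceeded the CD_M values, and the difference was 0.41 ± 0.14. Mki67, the proliferation marker, had 7674, 12510, 13740, 13990 and 13760 in WD_M livers, against 8909, 9563, 10700, 8146 and 7867 in CD_M livers. WD_M 1 lay below every CD_M liver and the other WD_M livers above them all, and the difference was 0.42 ± 0.19.

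Most red cell genes were higher too. Of 29 red cell lineage genes, 25 were higher in WD_M, with a median of 0.33. At an unadjusted p under 0.05, 10 were higher (3.79% of all genes), and 4 had no overlap between groups (0.852%). Relative to the CD_M mean, the list's mean log2 level was 0.34, 0.64, 0.39, 0.07 and -0.19 in WD_M 1 to 5. It was -0.25, -0.01, 0.20, 0.22 and -0.16 in CD_M 1 to 5, so the groups overlapped. The count of 10 was 6 without CD_M 4 (2.35% of all genes in that fit), 5 without CD_M 5, and 4 without WD_M 2 or without WD_M 3. Without both CD_M 4 and CD_M 5 it was 1 of 29 (1.54% of all genes in that fit), with a median of 0.27. Tal1, a master regulator of blood formation, had 2987, 3150, 2988, 2915 and 2852 in WD_M livers, against 2224, 2291, 2582, 1646 and 2303 in CD_M livers, without overlap. It differed by 0.45 ± 0.15. Slc4a1, the band 3 anion exchanger, had 25130, 32970, 35880, 34920 and 28880 in WD_M livers, against 23970, 24080, 25730, 24670 and 20750 in CD_M livers. WD_M 1 lay within the CD_M range and the other WD_M livers above it, and the difference was 0.40 ± 0.16. Xpo7, an exportin of red cell precursors, differed by 0.65 ± 0.24, or 0.40 without CD_M 4. With the mean level of the red cell list as a covariate, the median of the mitosis list was 0.16 and that of DNA replication 0.12. At an unadjusted p under 0.05 that fit had 9 mitosis genes higher and 2 lower, and 6 replication genes higher and 0 lower, against 9.81% of all genes higher and 10.2% lower in that fit. The adult globins have near-identical copies, so their single values are uncertain and none is given.

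Other blood lineages had list medians below or near 0. Neutrophil genes were lower in 16 of 17 cases (median -0.26), with 1 at an unadjusted p under 0.05. Mmp9, a protease of neutrophil granules, had 507, 357, 607, 408 and 501 in WD_M livers, against 668, 694, 570.4, 942 and 580.1 in CD_M livers. WD_M 3 alone reached into the CD_M range, and the difference was -0.54 ± 0.19. B cell precursor genes were lower in 11 of 13 (median -0.39, or -0.21 without CD_M 4 or without WD_M 5). Macrophage genes split, 6 higher and 8 lower with a median of -0.03, or 0.08 without CD_M 5 (-0.06 to 0.08 with single libraries left out), and the 3 at an unadjusted p under 0.05 were all higher. They were Cd5l, an apoptosis inhibitor secreted by Kupffer cells (0.44 ± 0.17), Marco, a scavenger receptor (0.42 ± 0.20), and Adgre1, the F4/80 antigen (0.38 ± 0.17, or 0.24 without CD_M 4). Megakaryocyte genes had a median of 0.07, or 0.12 without CD_M 5 (-0.01 to 0.16 with single libraries left out), with 0 of 16 at an unadjusted p under 0.05.

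Hepatocyte identity lists had more genes lower than higher. Secreted proteins had 13 of 20 lower and a median of -0.07, or -0.17 without CD_M 4 (-0.17 to 0.02 with single libraries left out). Transcription factors had 11 of 16 lower and a median of -0.15 (-0.20 to -0.08 with single libraries left out). Gc, the vitamin D-binding protein, had 31140, 31180, 23470, 28770 and 29030 in WD_M livers, against 37400, 36810, 32990, 36060 and 37540 in CD_M livers, without overlap, a difference of -0.34 ± 0.13. Foxa3, a hepatocyte forkhead factor, had 827, 776, 862, 738 and 769.7 in WD_M livers, against 1082, 825, 1124, 1720 and 1073 in CD_M livers. WD_M 1 and 3 lay just above CD_M 2, the lowest CD_M liver, and the difference was -0.51 ± 0.15, or -0.36 without CD_M 4. In bile acid synthesis and transport 8 of 14 genes were higher and 6 lower, with 0 higher and 3 lower at an unadjusted p under 0.05. The median was 0.03, or -0.17 without CD_M 4 (-0.17 to 0.19 with single libraries left out). Baat, which conjugates bile acids, had 158, 172, 156, 275 and 186 in WD_M livers, against 358, 394, 249.7, 285 and 304 in CD_M livers. Only WD_M 4 overlapped, and the difference was -0.76 ± 0.24. Cyp27a1, the mitochondrial sterol hydroxylase, differed by -0.78 ± 0.25 and Cyp8b1, which makes cholic acid, by -0.60 ± 0.22. Cyp2f2, a detoxifying cytochrome, differed by -0.9956 ± 0.41, in a list with 10 of 12 lower and a median of -0.26 (-0.41 to -0.12 with single libraries left out). With the red cell covariate, the median was 0.05 for secreted proteins and -0.03 for transcription factors. It was 0.33 for bile acid genes and -0.07 for detoxifying cytochromes, against -0.0027 over all genes in that fit.

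Both diets held 2 mg/kg folic acid, but the labels do not give how much was eaten. Genes of the folate cycle had 15 of 26 higher and a median of 0.08, or 0.04 without CD_M 4 and 0.02 without CD_M 5 (0.01 to 0.08 with single libraries left out), with 1 higher and 2 lower at an unadjusted p under 0.05. Mthfd2l, a mitochondrial dehydrogenase, had 66.1, 57.1, 47.3, 59.7 and 48.8 in WD_M livers, against 32.1, 44.5, 33.6, 25.9 and 49.1 in CD_M livers, a difference of 0.60 ± 0.21. Ftcd and Aldh1l1, hepatocyte enzymes that handle folate-bound carbon, differed by -0.28 ± 0.11 and -0.36 ± 0.15. Methionine, choline and methylation genes had a median of 0.07, or -0.02 without CD_M 4 and 0.03 without CD_M 5 (-0.04 to 0.08 with single libraries left out). Pemt, which makes phosphatidylcholine, differed by -0.52 ± 0.23, or -0.29 without CD_M 4. The 12 tested genes of Polycomb repressive complex 2 divided evenly, 6 higher and 6 lower, with a median of 0.01 (0.05 without CD_M 4, and -0.04 without CD_M 5 to 0.08 without WD_M 5), and beside Phf19 they held Suz12 at 0.36 ± 0.16, or 0.20 without CD_M 4. In mismatch repair 7 of 9 were higher, with a median of 0.21, or 0.10 without CD_M 4.

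**Figure D4:**
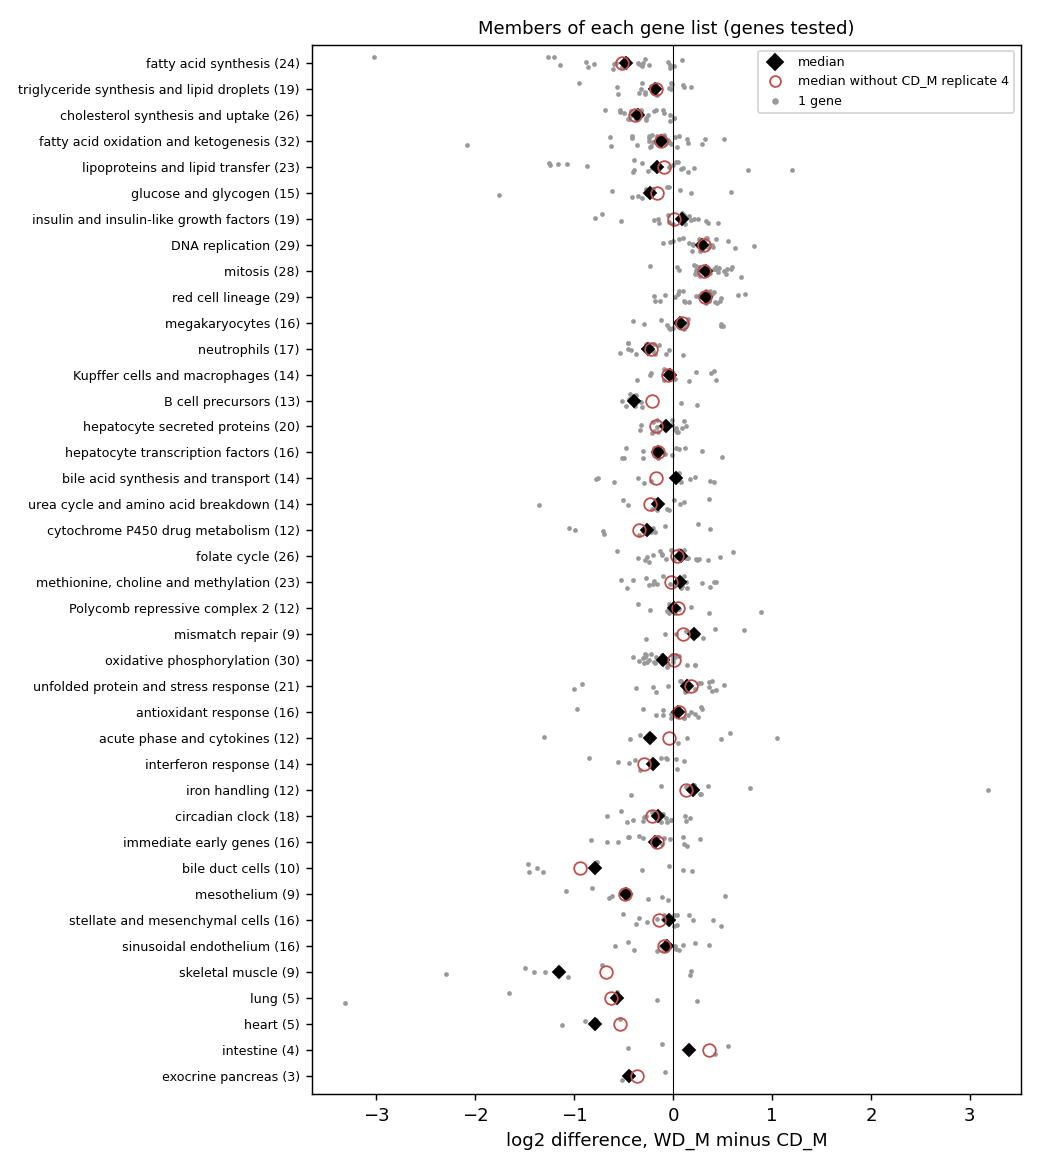
Log2 differences (WD_M minus CD_M) of the tested members of each list as grey points, with the median as a black diamond and the median without CD_M 4 as an open red circle; the number of genes tested is in brackets. Fatty acid and cholesterol synthesis lie left of 0 and DNA replication, mitosis and the red cell lineage right of it, while skeletal muscle has medians of -1.16 and -0.68.

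Iron genes were higher in 10 of 12 cases (median 0.20, or 0.13 without CD_M 4 and 0.30 without CD_M 1), and Hamp had the highest log2 difference among the members of all lists. Hamp, which encodes hepcidin, the iron-regulating hormone of the liver (chr7:30942368-30944032, minus strand), had 1718, 654, 445, 3601 and 6234 in WD_M livers, against 46.4, 149, 761, 432 and 75.97 in CD_M livers. WD_M 2 and 3 lay within the CD_M range and WD_M 1, 4 and 5 above it. The means were 2530 ± 2419 in WD_M and 293 ± 303 in CD_M (SD, n = 5 each), with a log2 difference of 3.19 ± 1.11 (limma, adjusted p = 0.626). Hjv, the hemojuvelin coreceptor that drives hepcidin expression, had 901, 952, 717, 909 and 659 in WD_M livers, against 1245, 1145, 977, 1129 and 1037 in CD_M livers. It was lower without overlap and differed by -0.43 ± 0.14. Among 12 acute phase and cytokine genes, 2 were higher and 1 lower at an unadjusted p under 0.05, and the last was Saa3, a serum amyloid gene (-1.31 ± 0.56).

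Immediate early genes had 12 of 16 lower (median -0.18) and 3 lower at an unadjusted p under 0.05. Klf4 and Klf6, Krüppel-like factors, differed by -0.83 ± 0.23 and -0.34 ± 0.12, and Atf3, a stress-induced factor, had 44.8, 49.02, 45.1, 64.1 and 46.4 in WD_M livers, against 74.4, 61.1, 109, 71.1 and 87 in CD_M livers. Only WD_M 4 overlapped CD_M, and the difference was -0.66 ± 0.18. In the unfolded protein response 15 of 21 genes were higher (median 0.14, or 0.08 without CD_M 5, and 0.08 to 0.23 with single libraries left out), with 4 higher and 2 lower at an unadjusted p under 0.05, or 1 and 0 without CD_M 4. The chaperones Hyou1 and Pdia4 differed by 0.52 ± 0.19 and 0.40 ± 0.17. In the clock list 15 of 18 were lower (median -0.15, and -0.23 to -0.07 with single libraries left out), with Per3 at -0.40 ± 0.16 and Npas2 at -0.67 ± 0.20.

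Among markers of cells beside the hepatocyte and blood lineages, bile duct, mesothelial, muscle, heart and lung markers were mostly lower in WD_M, while stellate and mesenchymal markers divided evenly, 8 higher and 8 lower. Bile duct markers had 8 of 10 lower, with a median of -0.78 (-0.94 without CD_M 4, -0.51 without WD_M 5 and -0.60 without CD_M 3), and their summed values were 951 to 1166 in WD_M and 1132 to 3210 in CD_M. Epcam, an epithelial adhesion protein, had 20.7, 53.2, 32.3, 71.1 and 36.4 in WD_M livers, against 115, 72.2, 155, 72.6 and 125 in CD_M livers, without overlap. It differed by -1.37 ± 0.40 (limma, adjusted p = 0.600). Krt7, a duct keratin, differed by -1.47 ± 0.55, and CD_M 3 was far above the rest for it. Mesothelial markers had 8 of 9 lower (median -0.47, or -0.29 without CD_M 5), with sums of 492 to 1090 in WD_M and 1072 to 1726 in CD_M, and Msln, mesothelin, differed by -1.09 ± 0.39. Skeletal muscle markers had 7 of 9 lower with a median of -1.16, or -0.68 without CD_M 4 and -0.75 without WD_M 5. With a value of at least 50 required in 5 libraries, the muscle median was 0.17. Muscle sums were 127 to 307 in WD_M and 153 to 805 in CD_M, the highest in CD_M 4. Sums of the heart markers were 62.4 to 84.8 in WD_M, 482 in CD_M 4 and 91.1 to 132 in the other CD_M libraries. Many of these markers were low: 9 of 16 muscle, 5 of 7 heart and 5 of 14 lung markers in the data were tested. Sums of the lung markers were 327 to 412 in WD_M and 391 to 6830 in CD_M, the highest in CD_M 5. The median of the stellate and mesenchymal list was -0.04 (-0.14 without CD_M 4, and -0.17 without WD_M 5 to 0.04 without CD_M 5). Sinusoidal endothelium had 6 higher and 10 lower with a median of -0.06 (-0.13 to 0.00 with single libraries left out), and the 4 intestinal markers 2 higher and 2 lower with a median of 0.16 (-0.09 to 0.36 with single libraries left out). The part of these markers in the other differences was not tested.

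The same diet contrast at 10 mg/kg folic acid, WDF_M against CDF_M, shares no library with WD_M against CD_M. Library WDF_M 2 held 5978 for Sftpc, against 4012 in CD_M 5. Malat1 was 12750 to 15690 in WDF_M 2 to 5 and 5295 in WDF_M 1, against 4390 to 6114 in CDF_M. The cause of these values was not tested. In WDF_M against CDF_M 0 genes passed the adjusted threshold in limma, with 629 higher (4.25%) and 611 lower (4.13%) at an unadjusted p under 0.05. No gene passed an adjusted p of 0.05 for the difference between the 2 contrasts in limma, where 1065 genes were higher (7.2%) and 1062 lower (7.18%) at an unadjusted p under 0.05, and the smallest adjusted p was 0.179. With library weights the number past the adjusted threshold was 469. The lists of fatty acid and cholesterol synthesis were lower at both doses. At 10 mg/kg fatty acid synthesis had a median of -0.37 with 22 of 24 lower, and cholesterol synthesis -0.53 with 24 of 26 lower, and 0 and 2 of their genes differed between doses at an unadjusted p under 0.05. Acss2 differed by -1.40 at 10 mg/kg and Me1 by -1.37. The other lipid lists had medians above 0 at 10 mg/kg: 0.11 for triglyceride synthesis and lipid droplets, with 6 of 19 lower, 0.12 for lipoproteins, with 9 of 23 lower, and 0.19 for fatty acid oxidation, with 12 of 32 lower. Of their genes 2, 7 and 10 differed between doses at an unadjusted p under 0.05 on the lower side at 2 mg/kg, and 0, 1 and 0 on the higher side. Cell division genes had the other sign at 10 mg/kg: the mitosis median was -0.10 with 21 of 28 lower, and 12 of 28 differed between doses at an unadjusted p under 0.05, all higher at 2 mg/kg. Ccnb1 differed by -0.35 at 10 mg/kg (interaction, limma, adjusted p = 0.205), Bub1b by -0.34 (0.200) and Mcm6 by -0.27 (0.182). Neutrophil genes had a median of 0.27 at 10 mg/kg, and 8 of 17 differed between doses at an unadjusted p under 0.05, all lower at 2 mg/kg. These list counts are given only with CD_M 4 included. That library had the highest neutrophil level in CD_M (0.42, others -0.19 to 0.07) and the lowest Ccnb1 (515). Over all genes, 2127 differed between doses at that threshold in limma, 1504 without CD_M 4 and 989 without CD_M 4 and 5. The smallest p-values of this difference belonged to Letm1, Dusp9 and Phf19 on the higher side and to Csta2, Retnlg and Fetub on the lower side. Fetub, a hepatocyte protease inhibitor, had 3643, 2843, 2537, 3794 and 3158 in WD_M livers, against 5092, 5592, 3716, 7874 and 5452 in CD_M livers, and averaged 6029 ± 681 in WDF_M and 4136 ± 1143 in CDF_M (SD, n = 5 each). Over all genes, the sign of the difference was shared in 31.5%, and in 46.7% without CD_M 4. Of the 560 genes higher in WD_M at an unadjusted p under 0.05, 16.8% were higher in WDF_M. Of the 540 lower genes, 34.6% were lower in WDF_M. Without CD_M 4 these shares were 31.5% of 346 genes and 53.5% of 443 genes.

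**Figure D5:**
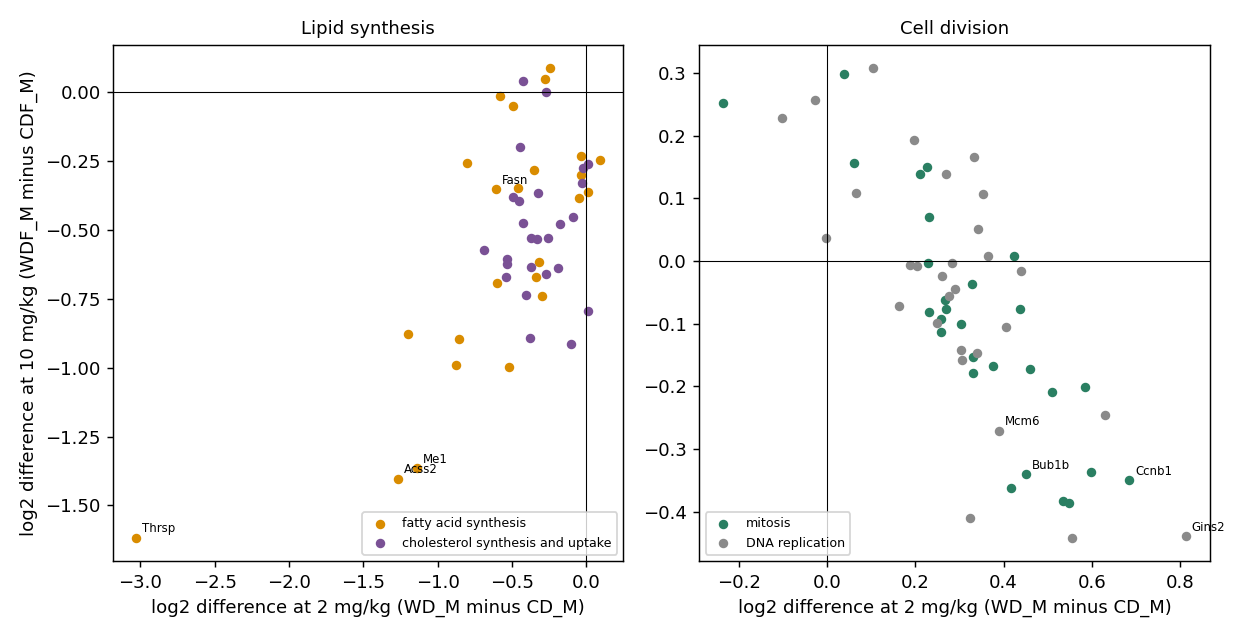
Each point is a gene, with its log2 difference at 2 mg/kg (WD_M minus CD_M) on the x axis and at 10 mg/kg (WDF_M minus CDF_M) on the y axis; the 2 panels have their own scales. Lipid synthesis genes lie mostly at the lower left, negative at both doses, and division genes mostly right of 0 with medians of -0.10 (mitosis) and -0.02 (DNA replication) at 10 mg/kg.

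In female fetuses the contrast of WD_F with CD_F, without 1 CD_F library and 1 CDF_F library that hold almost no albumin message, gave 0 genes past the adjusted threshold in limma (471 higher, 3.06%, and 540 lower, 3.51%, at an unadjusted p under 0.05) and medians of -0.26 for fatty acid synthesis, -0.16 for cholesterol synthesis, 0.24 for mitosis and 0.37 for the red cell lineage. Lists with the other sign in females included neutrophils at 0.19, B cell precursors at 0.19 and oxidative phosphorylation at 0.37. Their male medians were -0.26, -0.39 and -0.10, the last being 0.01 without CD_M 4. Immediate early genes at 0.07 and lipoproteins at 0.06 also had the other sign, against -0.18 and -0.16 in males. Iron genes had a median of 0.04 in females and 0.20 in males. No gene passed an adjusted p of 0.05 for the difference between sexes in limma, with 408 genes higher (2.65%) and 495 lower (3.22%) in males at an unadjusted p under 0.05. Of the 560 genes higher in WD_M at an unadjusted p under 0.05, 60.4% were higher in WD_F, and of the 540 lower genes 62.2% were lower, against 42.1% with a shared sign over all genes. Without CD_M 4 these shares were 77.5% of 346 genes, 84.7% of 443 genes and 59.7% over all genes. Since the labels give no dam, male and female fetuses may be littermates, and the part of shared dams in these shares was not tested. The genes with the smallest p for a difference between the sexes included Mthfd2l, which differed by 0.60 ± 0.21 in males and -0.49 in females, and Slc4a1ap, by -0.51 ± 0.18 and 0.53.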

How the data were processed

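RNA of 40 fetal livers was sequenced as paired reads, and 10 of these libraries, WD_M and CD_M, are compared here. Per the submitters' processing notes, the authors used Trimmomatic 0.39, STAR 2.7.3a, Salmon 1.3.0 and DESeq2 1.24 with the mm10 build, without saying in which order. What the authors deposited is a signal per gene, counts divided by size factors: median-ratio factors recomputed from them were 1 in every library, and whole counts could not be recovered, so counting error per gene is unknown. Sequencing depth per library is unknown as well, and the sums of normalized values given above do not measure it. The highest correlation between any 2 of the 10 libraries was 0.978, so none is a copy of another.

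The 14783 of 20593 genes that reached 10 in 5 or more of the 20 male libraries were tested with limma 3.58.1 (R 4.3.3) on log2(value + 1), with a mean for each of 4 male groups, a mean-variance trend, robust moderation and Benjamini-Hochberg adjustment at 0.05. Fold changes on this scale understate those of low genes. The comparison with females used 38 libraries in 8 groups. The design called for no count model, and none was run. Gene coordinates are those of GENCODE M21, which matched 20572 of 20593 genes. The members and the 40 gene lists were chosen with earlier results of these data known, so lists are described by counts and medians only. Genes are named by rule: the 12 with the smallest p in each direction, chosen leads of each list, up to 4 members of each list at an unadjusted p under 0.05, and 3 in each direction per interaction. Some genes that this rule names are not reported here. The pipeline was tested on simulated data. Alternatives were other sets of libraries, filters, scalings, pseudocounts of 0.5 and 5, library weights, a replicate block, a red cell covariate and each library left out. Leaving out CD_M 4 and CD_M 5 together was chosen after seeing the data.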

Additional observations from a re-analysis of the deposited data

Results flagged for a closer look

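In 13 of 205 cases (6.34%), a gene named in the text had 1 library far from the other 4 of its group, with a gap to its neighbour above 0.71 of the group's whole range on the log2 scale. Chance flags about 1 in 20 groups. Of these cases 6 were CD_M 4. In that library Aurkb (281, gap share 0.801), Ccnb1 (515, 0.791) and Donson (152, 0.767) were the lowest CD_M values, and Fdft1 (5794, 0.759), Flt1 (555, 0.825) and Pemt (12040, 0.713) the highest. Library CD_M 3 was lowest for Aldh1l1 (1611, 0.769) and Slc17a8 (44.1, 0.849), and CD_M 5 was lowest for Rpl35a-ps3 (0, 0.795). Among WD_M libraries, WD_M 1 was lowest for Bub1b (651, 0.801) and Mki67 (7674, 0.814), WD_M 3 lowest for Gc (23470, 0.717) and WD_M 4 highest for Atf3 (64.1, 0.749).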

How the results depend on the processing

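Of WD_M against CD_M, 0 genes passed the adjusted threshold under every alternative except library weights (125 genes, 45 higher and 80 lower), the red cell covariate (1, Gm35986) and single left-out libraries (0 to 1; Gm35986 without WD_M 2 and Rpl35a-ps3 without CD_M 5). The 1100 genes at an unadjusted p under 0.05 became 491 with all 40 libraries, 2589 with library weights, 2961 with the red cell covariate, 549 without CD_M 4 and 5, 541 without WDF_M 2 as well, and 789 to 1363 with single libraries left out. For the difference between doses, library weights gave 469 genes, the red cell covariate 19 and single left-out libraries 0 to 1 (1 without WD_M 5). The 2127 genes of that difference at an unadjusted p under 0.05 became 1026, 3395, 4161, 989 and 749 under the same 5 settings and 1504 to 2863 with single libraries left out. For the difference between sexes, 0 genes passed under every alternative run, and the 903 at an unadjusted p under 0.05 became 2021 with library weights and 278 (without CD_M 4) to 1524 (without WD_F 3) with single libraries left out; it was 1487 without CD_M 1, 1484 without WD_M 2, 566 without WD_M 4, 529 without WD_M 5, 547 without CD_F 2, 582 without WD_F 2 and 590 without WD_F 4. The causes were not tested.

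Replicate numbers do not pair the samples: deviations of same-numbered WD_M and CD_M libraries correlated at -0.271, -0.287, 0.049, -0.404 and 0.179, and 0 of 5 WD_M libraries correlated best with their own number. With the replicate block, 0 genes passed for each of the 3 contrasts, and 986, 1839 and 683 had an unadjusted p under 0.05. Of 103 genes named with a test, 37 passed the adjusted threshold in at least 1 of 25 alternatives, 35 of them with library weights alone. None of the 91 at an unadjusted p under 0.05 changed sign, which is a weak test, since a small p in the same libraries makes a turn unlikely. Among the others, Srebf1 (0.01) was -0.0048 with upper-quartile scaling, -0.0462 with library weights, -0.11 without CD_M 4 and 5, with or without WDF_M 2, and -0.115 to 0.104 with single libraries left out. Srebf2 (0.01) was -0.0063 with upper-quartile scaling, -0.0304 without CD_M 4 and 5, with or without WDF_M 2, and -0.111 to 0.105 with single libraries left out. Mlxipl (-0.24) was 0.0219 without CD_M 4 and 5, with or without WDF_M 2. Pck1 (0.59) was -0.345 with library weights, 1.77 with the red cell covariate and -0.394 to 1.362 with single libraries left out, and Cps1 (-0.17) was 0.29 with the red cell covariate and -0.419 to 0.0815 with single libraries left out. Over all alternatives the median of fatty acid synthesis ran between -0.55 and -0.37, of cholesterol synthesis between -0.42 and -0.23, of mitosis between 0.16 and 0.38, of DNA replication between 0.12 and 0.38 and of the red cell lineage between 0.10 and 0.37, while 16 of the 40 list medians took the other sign at least once. In 25 of 30 lists with 1 to 6 genes at an unadjusted p under 0.05, leaving out a single library moved that number by over 1.5 times.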

Other observations

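Interferon response genes differed more among the WD_M livers than between the diets. Relative to the CD_M mean, the mean log2 level of the 14 genes was 0.15, -1.04, -0.99, 0.82 and -0.11 in WD_M 1 to 5, against 0.13, -0.04, -0.38, -0.10 and 0.39 in CD_M 1 to 5. WD_M 2 and 3 lay below every CD_M liver and WD_M 4 above every CD_M liver. Isg15, a ubiquitin-like protein that interferon induces, had 2074, 547, 502, 2087 and 936 in WD_M livers, against 1878, 1591, 1190, 2459 and 2450 in CD_M livers, with the lowest values in WD_M 2, 3 and 5. The median over the list was -0.20, or -0.07 without CD_M 5, and lay between -0.50 and 0.00 with single libraries left out.

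Oxidative phosphorylation genes had 20 of 30 lower with a median of -0.10, or 0.01 without CD_M 4 and 0.00 without WD_M 5, and 0 at an unadjusted p under 0.05 in limma. Their mean level was 0.18, 0.26, -0.04, -0.35 and -0.59 in WD_M 1 to 5, against -0.31, -0.05, -0.05, 0.54 and -0.12 in CD_M 1 to 5. In vessel and mesenchymal markers, Flt1, a VEGF receptor of endothelium, had 220, 246, 327, 307 and 319 in WD_M livers, against 353, 363, 332, 555 and 352 in CD_M livers, without overlap, while the median of the endothelial list was -0.06. Des, the intermediate filament desmin of stellate cells, had 82.3, 105, 106, 76.7 and 125 in WD_M livers, against 126, 117, 121, 193 and 151 in CD_M livers, where WD_M 5 alone reached the CD_M range, while its list had 8 genes higher and 8 lower with a median of -0.04, or 0.04 without CD_M 5. Slc7a11, the cystine transporter of the antioxidant response, had 4.93, 2.50, 5.11, 6.16 and 19.9 in WD_M livers, against 16.2, 16.9, 21.1, 5.59 and 11.3 in CD_M livers, and the groups overlapped. Cxcl1, a neutrophil-attracting chemokine, and Socs3, a feedback inhibitor of cytokine signalling, were the 2 genes of the acute phase list higher at an unadjusted p under 0.05, with log2 differences of 1.05 and 0.49, the second being 0.26 without CD_M 4.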
